A study of Mus musculus with 6 samples.

Results

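Insig1, Scd2, Idh1, Idh2 and Acadvl, genes of lipid synthesis, fatty acid oxidation and NADPH supply, were followed in cultured mouse embryonic fibroblasts with and without cyclophilin D. The 5 genes were chosen by the difference between knockout and wild type on these same 6 arrays, and by their shared theme, so their own differences are described here without a test. They are 5 of 7606 genes with an annotated probe, and 8 annotated probes report on them: 3 for Insig1, 2 for Acadvl and 1 each for Scd2, Idh1 and Idh2. The CypD knockout group held 3 arrays and the wild-type group 3 arrays, lettered A, B and C in each. CypD knockout cells lack cyclophilin D, a peptidyl-prolyl isomerase of the mitochondrial matrix encoded by Ppif. Both groups came from E13.5 (mid-gestation) embryos of C57BL/6 strain background, grown in serum-containing medium with no treatment named in the labels. Whether a letter stands for an embryo, a litter or a culture is unstated, so the spread within a group may be technical. RNA was read from whole cultures, in which fewer cells of a type and less RNA per cell cannot be told apart.

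The 5 proteins sit at different points of lipid metabolism. Insig1 is an anchor protein of the endoplasmic reticulum: when sterols are plentiful it holds the escort protein SCAP in place, so that the SREBP transcription factors are not carried to the Golgi and activated. Insig1 is itself a well-known SREBP target. Scd2 is a stearoyl-CoA desaturase, which puts a double bond into saturated fatty acyl chains. Idh1 (cytosol and peroxisome) and Idh2 (mitochondrial matrix) are the NADP-dependent isocitrate dehydrogenases, which turn isocitrate into 2-oxoglutarate and yield the NADPH used for lipid synthesis and antioxidant defence. Acadvl, the very long-chain acyl-CoA dehydrogenase of the inner mitochondrial membrane, makes the first oxidation of long-chain fatty acids.

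The arrays were alike in overall signal. Median intensities lay between 226 and 229 on the knockout arrays and between 223 and 251 on the wild-type arrays. Across probes, normalized log2 intensities gave Pearson's r of 0.994 for every knockout pair, 0.992 to 0.994 for wild-type pairs and 0.984 to 0.986 for knockout and wild-type pairs. The targeted gene, Ppif, had a log2 intensity of 12.26 ± 0.086 in knockout and 13.63 ± 0.067 in wild type (SD, n = 3 each). It was thus lower but still bright in the arrays labelled knockout (log2 fold change -1.37 ± 0.066, SE, limma adjusted p = 2.96e-09), and where its probe lies relative to the deletion was not known. The fibroblast collagens Col1a1 and Col1a2 were bright in both groups, at 13.36 and 12.07 in knockout and 13.99 and 12.43 in wild type, whereas the probe of Vim, the fibroblast filament vimentin, was dim at 7.60 in knockout and 7.84 in wild type. At an adjusted p under 0.05, 4 of 10 fibroblast markers tested fell, both collagens among them, and 3 rose (Pdgfra, Col3a1 and Pdgfrb). Over all annotated genes tested, 21.8% fell and 21.8% rose.

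Promoter sequence is shown for 4 of the 5 genes, those matched in RefSeq's promoter table for mouse build GRCm38.p6, because 3 of them were higher and 1 was lower in knockout. Each line holds the 250 bases before an annotated start, 5′ to 3′ on the gene's strand. Capitals mark matches, on either strand, to the E-box CACGTG, the CCAAT box, the nuclear receptor half-site AGGTCA and the sterol response element TCACNCCAC. The Insig1 window is chr5:28071162-28071411 (plus strand), the Idh1 window chr1:65186480-65186729 (minus strand), the Idh2 window chr7:80115351-80115600 (minus strand) and the Acadvl window chr11:70015429-70015678 (minus strand). The Idh2 window belongs to a start inside the gene's annotated span (chr7:80094845-80118608), whereas the other windows lie just before the span of their gene.
Insig1: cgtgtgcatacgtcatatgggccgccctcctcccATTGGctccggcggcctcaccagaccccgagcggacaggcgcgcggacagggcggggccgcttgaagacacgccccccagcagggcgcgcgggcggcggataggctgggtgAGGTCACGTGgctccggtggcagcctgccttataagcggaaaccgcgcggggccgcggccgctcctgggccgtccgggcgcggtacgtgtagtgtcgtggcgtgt
Idh1: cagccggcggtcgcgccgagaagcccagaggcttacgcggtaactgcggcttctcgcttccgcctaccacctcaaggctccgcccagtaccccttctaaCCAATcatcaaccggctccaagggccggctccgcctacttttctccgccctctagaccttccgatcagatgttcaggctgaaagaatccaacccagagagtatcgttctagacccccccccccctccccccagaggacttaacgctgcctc
Idh2: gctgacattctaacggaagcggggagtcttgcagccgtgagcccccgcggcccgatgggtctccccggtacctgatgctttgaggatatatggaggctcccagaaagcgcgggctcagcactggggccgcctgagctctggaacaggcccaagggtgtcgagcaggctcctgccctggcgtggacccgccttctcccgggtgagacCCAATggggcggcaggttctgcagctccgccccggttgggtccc
Acadvl: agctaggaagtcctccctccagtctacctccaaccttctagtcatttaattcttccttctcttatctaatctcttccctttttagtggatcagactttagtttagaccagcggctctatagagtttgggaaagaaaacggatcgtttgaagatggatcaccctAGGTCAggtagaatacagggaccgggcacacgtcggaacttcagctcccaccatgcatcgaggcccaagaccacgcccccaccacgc
The Insig1 window held 1 CCAAT box, read on the other strand as ATTGG, and 1 half-site that overlaps 1 E-box by 2 bases. Idh1 and Idh2 each held 1 CCAAT box, and Acadvl 1 half-site. A second annotated Idh1 start had no match to any of the 4 motifs in its window. The exact sterol response element letters were in none of these windows. Over all 32851 windows of the same length in the table, 33.8% held a CCAAT box, 14.0% the half-site, 6.02% the E-box and 1.05% the sterol response element, so a CCAAT box is common in such windows. These matches describe the letters and say nothing of binding.

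Insig1, Scd2, Idh1 and Idh2 were higher in knockout cells and Acadvl was lower. In normalized log2 intensity, the 6 probes of the first 4 genes were higher by 0.50 to 0.91 and the 2 Acadvl probes lower by 0.36 and 0.41. Knockout and wild-type arrays did not overlap for any of the 8 probes. Of 10651 annotated probes tested, 54.7% had groups that did not overlap and 42.1% passed the limma test (adjusted p under 0.05). Because the 5 genes were chosen from this contrast, nothing is read from the fact that all 8 probes lie on that side. The annotated probes had themselves been selected for variation: each listed probe had a highest processed value at least 1.20 times its lowest. Only listed probes carry gene names here, so a gene without an annotated probe may still be on the array.

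**Figure D1:**
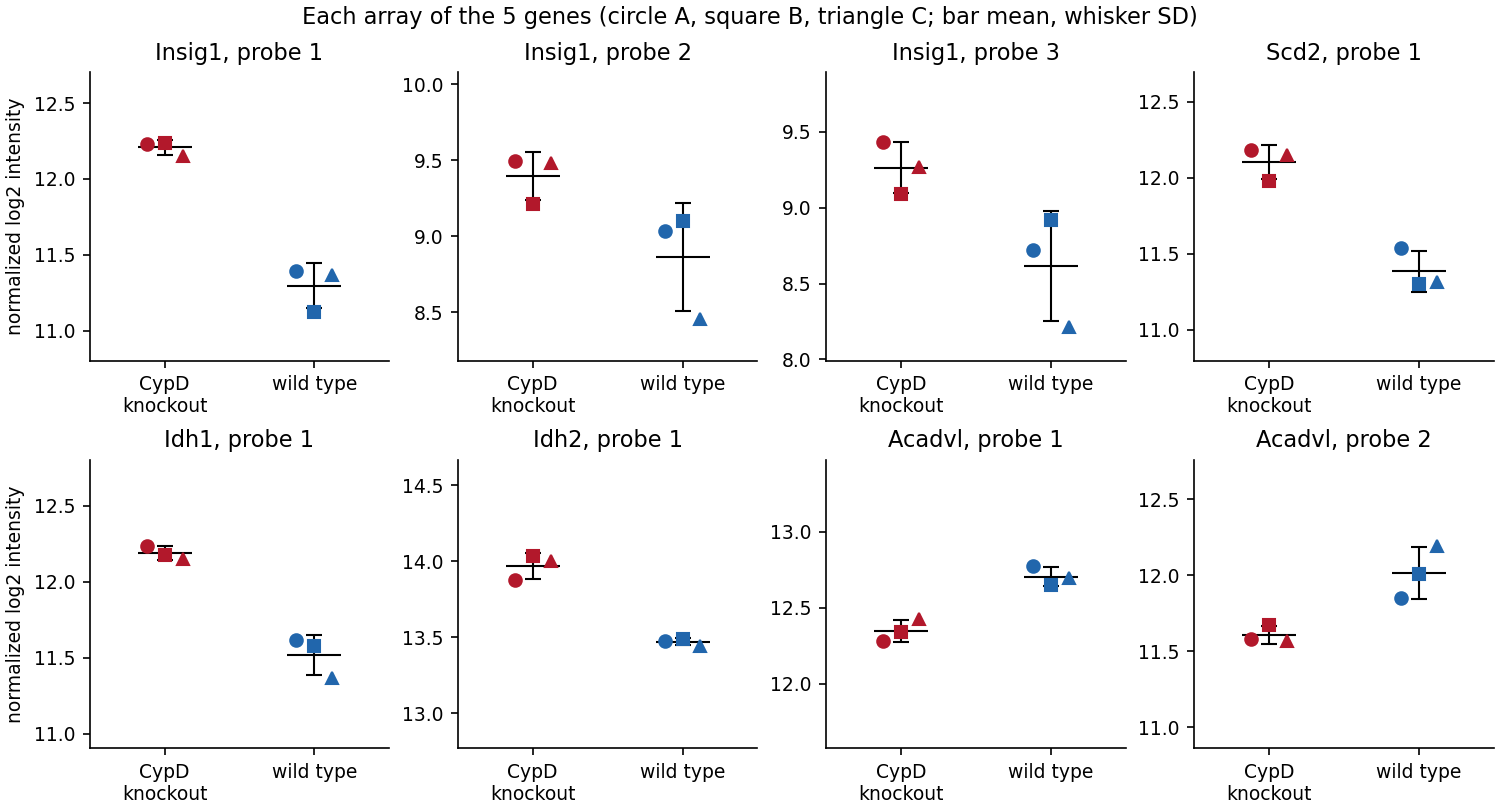
Normalized log2 intensity (vertical axis, each panel spanning the same range) of the 8 probes on each array, CypD knockout left and wild type right; circles, squares and triangles are arrays A, B and C, bars are means and whiskers SDs (n = 3). In every panel the groups are separate, narrowly so for probes 2 and 3 of Insig1 and probe 2 of Acadvl, and Acadvl is the one gene that is lower in knockout.

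Insig1, the brake on SREBP, differed most. Its brightest probe read 12.23, 12.24 and 12.15 on knockout arrays A, B and C, against 11.40, 11.13 and 11.37 on the wild-type arrays. All 3 knockout arrays stood at least 0.76 above the highest wild-type array, and the wild-type arrays scattered more (SD 0.15 against 0.047 in knockout). The log2 fold change was 0.91 ± 0.081 (SE), or 1.88-fold. The intensities as deposited also put every knockout array above every wild-type array, with 4783, 4681 and 4549 in knockout and 3043, 2352 and 2705 in wild type.

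The other Insig1 probes were dimmer and less even. The second read 9.49, 9.22 and 9.48 in knockout against 9.03, 9.10 and 8.45 in wild type, and the third 9.43, 9.09 and 9.27 in knockout against 8.72, 8.92 and 8.22 in wild type. In both, wild-type array C lay far below wild-type arrays A and B, and knockout array B came within 0.11 and 0.17 of the highest wild-type array. The log2 fold changes were 0.53 ± 0.15 and 0.65 ± 0.15 (SE). Without wild-type array C they were 0.33 and 0.44, while the brightest probe gave 0.95. The direction was thus shared by all 3 probes, but the size from the dim ones rests in part on 1 array.

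Insig2, the second Insig protein, rose too. It averaged 11.60 ± 0.027 in knockout and 10.59 ± 0.053 in wild type (SD, n = 3 each), a 2.01-fold rise by its brightest probe (log2 fold change 1.01 ± 0.071, limma adjusted p = 1.42e-07) and 1.26-fold by the other (0.33 ± 0.10, adjusted p = 0.0396). Beside the Insig genes, the sterol synthesis and SREBP list moved both ways. Besides Insig1, 18 members were tested: 5 rose, 6 fell and 7 did not pass, with a median log2 fold change of 0.07. Over all 7605 annotated genes tested, 43.6% changed, 21.8% upward and 21.8% downward, with a median of 0.01.

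The sterol genes that rose were, after Insig2, Lss, Fdps, Cyp51 and Srebf1. Lss, which closes the sterol ring to lanosterol, rose 1.43-fold (0.51 ± 0.071, adjusted p = 0.000119) by its bright probe, while a dim one gave 0.01 (adjusted p = 0.981). Fdps, which makes farnesyl diphosphate, and Cyp51, the lanosterol demethylase, rose by 0.43 and 0.31. Srebf1, the SREBP gene tied mainly to fatty acid synthesis, rose by 0.33 ± 0.091 (adjusted p = 0.0205), a call lost when any array except wild-type C was left out (adjusted p up to 0.0767).

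Srebf2, the SREBP gene tied mainly to cholesterol synthesis, fell by 0.38 ± 0.095 (adjusted p = 0.0106), a call lost without knockout array B (adjusted p = 0.0582). Stard4, a carrier of cholesterol, Sc5d, the lathosterol desaturase, and Ebp, a sterol isomerase, fell by 0.65, 0.52 and 0.39. Sqle, the squalene epoxidase, fell by 0.29 ± 0.066 (adjusted p = 0.00618), a call lost without the intensity trend, and its second probe did not pass (-0.27, adjusted p = 0.126). The SREBP escort gene Scap and the protease gene Mbtps1, the brightest genes of the list that did not pass, had log2 fold changes of -0.19 and 0.14. Of the 30 list members, 11 had no annotated probe and are not analysed here.

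Scd2, the desaturase, came next in size. It read 12.18, 11.98 and 12.15 on the knockout arrays, against 11.54, 11.30 and 11.31 on the wild-type arrays. The lowest knockout array stood 0.44 above the highest wild-type array. The log2 fold change was 0.72 ± 0.084 (SE), or 1.65-fold, from the only annotated probe.

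Of the other desaturases, Scd1, Fads1 and Fads2 rose and Fads3 fell. Scd1, the closest relative, rose 1.28-fold (13.36 ± 0.049 in knockout and 13.01 ± 0.041 in wild type, SD, n = 3 each; adjusted p = 0.000547). Scd4 was dim and did not pass (0.16 ± 0.13, adjusted p = 0.497). Fads1 and Fads2, which desaturate polyunsaturated fatty acids, rose by 0.37 ± 0.054 and 0.46 ± 0.089 (adjusted p = 0.000206 and 0.00198), whereas Fads3 fell by 0.47 ± 0.067 (adjusted p = 0.000156). The family relatives were singled out after their values had been seen.

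In the list of fatty acid synthesis, elongation and desaturation, 15 genes besides Scd2 were tested: 4 rose, 4 fell and 7 did not pass, with a median log2 fold change of 0.13. The share that passed over all annotated genes was 43.6%. The fourth rise was that of the elongase Elovl4 (0.26 ± 0.079, adjusted p = 0.0316). That call was lost when any array except wild-type C was left out, without the intensity trend and with median scaling, with adjusted p up to 0.129. Hacd1, a dehydratase of the fatty acid elongation cycle, was 12.08 ± 0.056 in knockout and 13.15 ± 0.095 in wild type (SD, n = 3 each). It fell by 1.07 ± 0.068 (adjusted p = 5.13e-08), and Mid1ip1, an activator of acetyl-CoA carboxylase, was lower too, at -1.03 ± 0.084 on the log2 scale (adjusted p = 6.31e-07). Hacd2 fell by 0.36 ± 0.098, a call lost without any 1 of the knockout arrays or wild-type array A (adjusted p up to 0.0753). Tecr, the last enzyme of the elongation cycle, had 0.26 (adjusted p = 0.0935) by its brightest probe, but passed without wild-type array C (adjusted p = 0.000851) and with array weights, and another of its probes passed at 0.26 (adjusted p = 0.0117). The elongase Elovl6 had 0.15 and did not pass. The synthesis enzymes Acly, Acaca and Fasn had no annotated probe and are not analysed here.

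Both NADP-dependent isocitrate dehydrogenases were higher in knockout. Idh1 read 12.24, 12.18 and 12.15 on the knockout arrays, against 11.62, 11.57 and 11.37 on the wild-type arrays, a log2 fold change of 0.67 ± 0.077 (SE), or 1.59-fold. Idh2, whose probe lay at percentile 97.9 of mean intensity, read 13.87, 14.03 and 14.00 in knockout, against 13.48, 13.49 and 13.45 in wild type, a log2 fold change of 0.50 ± 0.059 (SE), or 1.41-fold. The wild-type arrays of Idh2 lay within a narrow band (SD 0.023), and knockout array A was the lowest of its group and still 0.39 above them. As deposited, the Idh2 intensities were 14723, 16310 and 16032 in knockout and 12526, 11776 and 11255 in wild type.

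The NAD-dependent isocitrate dehydrogenase of the TCA cycle, a complex of the products of Idh3a, Idh3b and Idh3g, did not show this difference by its bright probes. Idh3a fell by 0.29 ± 0.085 (12.10 ± 0.145 in knockout and 12.39 ± 0.12 in wild type, SD, n = 3 each; adjusted p = 0.0241) and Idh3b by 0.19 ± 0.056 (adjusted p = 0.0257). Both calls were lost without the intensity trend, without knockout array B and without wild-type array A, with adjusted p up to 0.129, and the Idh3b call also without knockout array C (adjusted p = 0.0565). A dim second Idh3b probe went the other way (0.60 ± 0.13, adjusted p = 0.00456), so the direction for Idh3b depends on the probe. Idh3g had -0.15 and -0.15 by its probes and did not pass (adjusted p = 0.117 and 0.296). The difference between the NADP- and NAD-dependent enzymes was not tested.

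**Figure D2:**
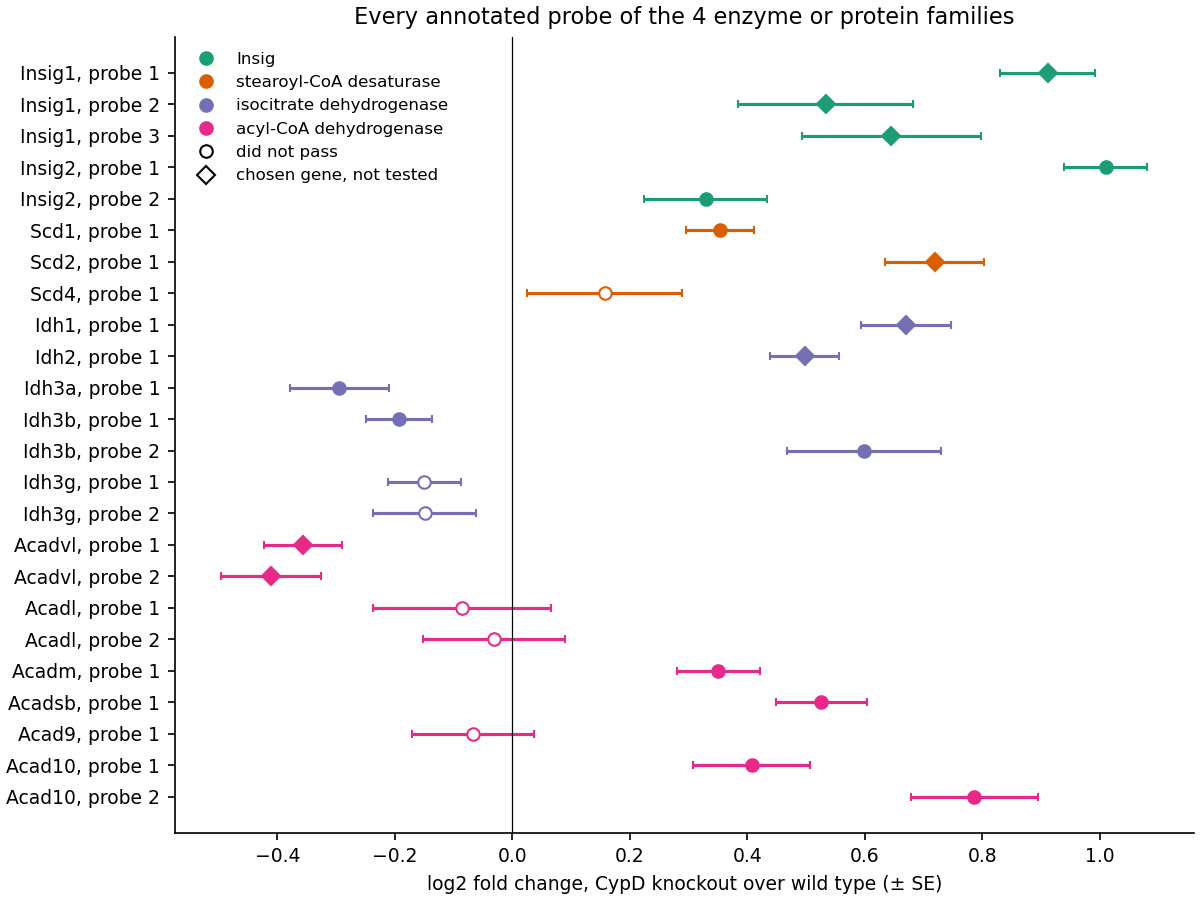
Log2 fold change with SE (horizontal axis, CypD knockout over wild type) of every annotated probe of the Insig, stearoyl-CoA desaturase, isocitrate dehydrogenase and acyl-CoA dehydrogenase families; diamonds are the 5 chosen genes, filled circles passed the test and open circles did not. The Insig and desaturase probes lie right of 0, Idh1 and Idh2 lie right of 0 while the bright Idh3 probes lie left, and Acadvl lies left of 0 while Acadm, Acadsb and Acad10 lie right.

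In the list of NADPH sources, 9 genes besides Idh1 and Idh2 were tested: 1 rose, 5 fell and 3 did not pass, with a median log2 fold change of -0.21. The list is broader than enzymes that yield NADPH: among the falls, Me2 is NAD-dependent, and Nadk and Nadk2 make NADP. Over all annotated genes, 21.8% rose and 21.8% fell. The whole list, Idh1 and Idh2 included, had 3 rises and 5 falls. It had 2 rises and 3 falls without the intensity trend or without knockout array C, and 3 rises and 2 falls without wild-type array A. Me2, the mitochondrial NAD-dependent malic enzyme, fell by 0.80 ± 0.085 (10.36 ± 0.069 in knockout and 11.16 ± 0.13 in wild type, SD, n = 3 each; adjusted p = 1.00e-05). Aldh1l2, the mitochondrial 10-formyltetrahydrofolate dehydrogenase that yields NADPH, fell by 0.65 ± 0.072 (adjusted p = 1.39e-05), and by 0.49 on its other probe. Nadk2, the mitochondrial NAD kinase that makes NADP, had a dim probe, at 6.42 in knockout and 7.55 in wild type. It fell by 1.13 ± 0.14 (adjusted p = 3.80e-05), but its log2 fold change ran from -1.59 to -0.65 with the background setting. It was below the intensity filter, and so not tested, without wild-type array A or C. Nadk2 thus passed the filter only through its wild-type signal, and little can be read from its call, which is 1 of the 5 falls.

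Smaller falls were those of the cytosolic NAD kinase gene Nadk (-0.23, adjusted p = 0.0325) and of glutamate dehydrogenase, Glud1 (-0.21, adjusted p = 0.0377). Their second probes did not pass, and both calls were lost without the intensity trend, knockout array A, knockout array C or wild-type array A, that of Glud1 also without knockout array B or wild-type array B (adjusted p up to 0.156). The rise was that of Pgls, the lactonase of the pentose phosphate pathway (0.27 ± 0.067, adjusted p = 0.0103), a call lost without knockout array C (adjusted p = 0.0617) and without the intensity trend. Mthfd1, the folate enzyme, and H6pd, the hexose-6-phosphate dehydrogenase of the endoplasmic reticulum, had -0.14 and 0.14 and did not pass. Nnt, the mitochondrial transhydrogenase, was dim in both groups (7.44 ± 0.11 in knockout and 7.34 ± 0.19 in wild type, SD, n = 3 each). The pentose phosphate dehydrogenase genes G6pdx and Pgd and the malic enzyme gene Me1 had no annotated probe and are not analysed here.

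Among isocitrate and TCA cycle enzymes, 14 besides Idh1 and Idh2 were tested: 1 rose, 3 fell and 10 did not pass (median -0.11). Among all annotated genes, 21.8% rose and 21.8% fell. With Idh1 and Idh2 the list had 6 calls, and 2 without the intensity trend or knockout array B, and 3 without knockout array C. The rise was that of Dld, the dehydrogenase subunit shared by 2-oxoacid complexes (0.32 ± 0.092, adjusted p = 0.0260), a call lost with median scaling (adjusted p = 0.0563), without the intensity trend, and without knockout B, knockout C or wild-type C. The third fall was that of the succinate dehydrogenase subunit Sdhc (-0.22, adjusted p = 0.04998), a call kept in 6 of 16 alternatives. Dlst, a subunit of the 2-oxoglutarate dehydrogenase complex that uses the product of isocitrate dehydrogenase, had 0.22 ± 0.073 and did not pass (adjusted p = 0.0531), though it passed in 4 of 16 alternatives.

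Acadvl was lower in knockout by both probes. The brighter read 12.28, 12.34 and 12.43 on the knockout arrays, against 12.77, 12.65 and 12.69 on the wild-type arrays. The other read 11.58, 11.67 and 11.57 in knockout, against 11.85, 12.01 and 12.19 in wild type. The log2 fold changes were -0.36 ± 0.066 and -0.41 ± 0.085 (SE), or 1.28-fold and 1.33-fold lower. The gap between the groups was 0.22 for the brighter probe and 0.18 for the other, in which the wild-type arrays were spread (SD 0.17).

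Acadvl did not share its direction with the other acyl-CoA dehydrogenases that passed. Acadm, which acts on medium-chain substrates, rose by 0.35 ± 0.070 (12.67 ± 0.041 in knockout and 12.32 ± 0.115 in wild type, SD, n = 3 each; adjusted p = 0.00251). Acadsb, which acts on short branched chains, rose by 0.53 ± 0.077 (adjusted p = 0.000204), and Acad10, a less studied relative, by 0.41 and 0.79 on its probes, both dim, the first at 0.27 without background correction. Acadl, the long-chain enzyme, and Acad9, also an assembly factor of respiratory complex I, had -0.09 ± 0.15 and -0.07 ± 0.10 and did not pass. Whether the difference between Acadvl and these genes exceeds error was not tested.

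Fatty acid oxidation genes as a list moved both ways. Besides Acadvl, 23 genes were tested: 9 rose, 6 fell and 8 did not pass, with a median log2 fold change of 0.13. Of all annotated genes tested, 43.6% passed, 21.8% in each direction. Acsl3, a long-chain acyl-CoA synthetase tied to lipid droplets, rose 1.72-fold (12.73 ± 0.066 in knockout and 11.95 ± 0.072 in wild type, SD, n = 3 each; adjusted p = 1.24e-06). Echs1 and Ech1, a hydratase and an isomerase of beta-oxidation, rose by 0.42 and 0.39, while a dim second Echs1 probe gave 0.23 and did not pass (adjusted p = 0.172). Etfdh, which passes electrons from acyl-CoA dehydrogenases to ubiquinone, fell by 0.52 ± 0.092 (adjusted p = 0.000951) by its bright probe, with -0.17 from a dim one that did not pass. Hsd17b4, the peroxisomal bifunctional enzyme, fell by 0.45 ± 0.068 (adjusted p = 0.000262), and Acaa2, the mitochondrial thiolase, fell by 0.52 ± 0.12 (adjusted p = 0.00773). Of the trifunctional protein that acts after Acadvl on long chains, the subunit gene Hadha rose by 0.36 ± 0.11 (adjusted p = 0.0365) on a dim probe, a call lost without knockout array B, knockout array C or wild-type array A (adjusted p up to 0.148). Its partner Hadhb had 0.13 ± 0.067 and did not pass (adjusted p = 0.204), nor did the peroxisomal thiolase Acaa1a (0.06).

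**Figure D3:**
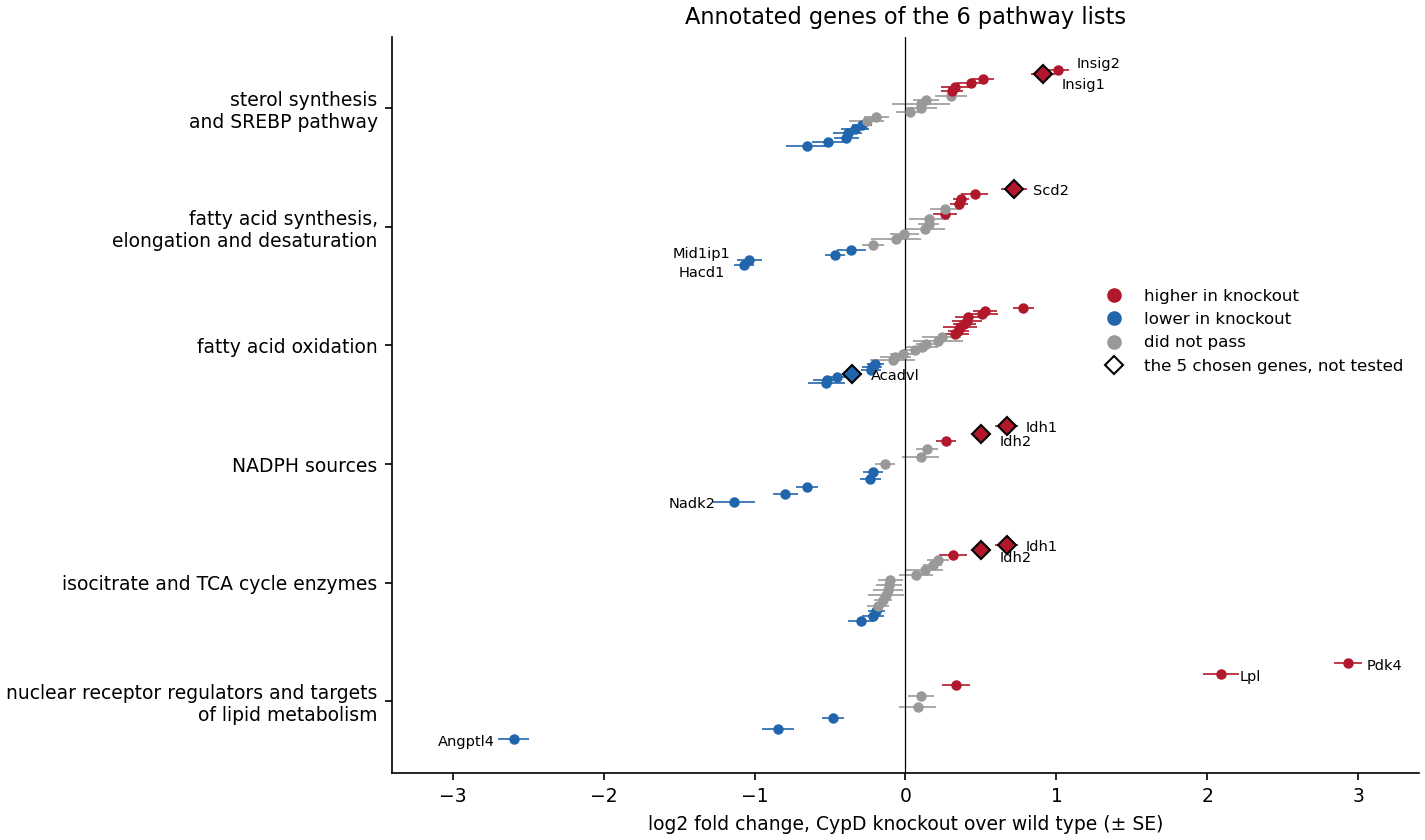
Log2 fold change with SE (horizontal axis, CypD knockout over wild type) of each tested gene in the 6 pathway lists, 1 point a gene by its brightest probe; red passed upward, blue passed downward, grey did not pass, and diamonds are the 5 chosen genes, coloured by direction. Each list holds points on both sides of 0, and the widest spread is in the nuclear receptor list, from Angptl4 at -2.60 to Pdk4 at 2.93.

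The largest changes around fatty acid use were in nuclear receptor targets. Pdk4, the kinase that turns down pyruvate dehydrogenase, rose 7.62-fold (11.58 ± 0.14 in knockout and 8.65 ± 0.11 in wild type, SD, n = 3 each; adjusted p = 4.40e-11). Angptl4, a secreted inhibitor of lipoprotein lipase, was 7.70 ± 0.17 in knockout and 10.30 ± 0.092 in wild type (SD, n = 3 each), a log2 fold change of -2.60 ± 0.10 (adjusted p = 4.37e-10). Lpl, the lipase itself, rose 4.26-fold (2.09 ± 0.12, adjusted p = 2.06e-08), and Fabp3, a fatty acid binding protein, fell by 0.85 ± 0.11 (adjusted p = 4.48e-05). The wild-type signal of Lpl, at 6.96, and the knockout signals of Angptl4 and Fabp3, at 7.70 and 7.71, were dim, and the added offset understates folds of dim probes.

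Of the receptors in that list, Ppard fell by 0.48 ± 0.072 (adjusted p = 0.000252). Pparg, the receptor of fat cell differentiation, rose by 0.34 ± 0.093 (adjusted p = 0.0197), a call lost without knockout A, knockout C, wild-type A or wild-type B (adjusted p up to 0.0902). A dim second Pparg probe gave 0.32 and did not pass (adjusted p = 0.0905). Esrra and Rxra had 0.10 and 0.08 and did not pass. Of the 8 genes tested, 3 rose, 3 fell and 2 did not pass, with a median of 0.09, where 43.6% of all annotated genes passed.

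Markers of other cell types gave few values. Their counts stand beside 21.8% rising and 21.8% falling over all annotated genes. Of 10 adipocyte markers 1 had an annotated probe, Lipe, the hormone-sensitive lipase, which was dim and did not pass (-0.13 ± 0.14, adjusted p = 0.63), and the defining markers Adipoq and Fabp4 had none. Of 8 hepatocyte and 7 endothelial markers none had one. Of 12 fibroblast markers 10 were tested, of which 3 rose and 4 fell. By log2 fold change the rises were Pdgfra (1.47), Col3a1 (1.13) and Pdgfrb (0.41). The falls were S100a4 (-1.62), Dcn (-0.64, dim), Col1a1 (-0.63) and Col1a2 (-0.36). The summed linear intensity of the 10 was 55346 to 59551 in knockout and 64420 to 70043 in wild type. The brightest markers weigh most in this sum, above all Col5a1 (14.73 in knockout and 14.88 in wild type), which did not pass. The sum thus tells little of dimmer markers such as Pdgfra. Epithelial markers (3 of 6 tested) summed to 1822 to 1935 in knockout and 1372 to 1425 in wild type, and 1 of the 3 rose and 1 fell. The rise was that of Spint1 (0.78), the brightest, which weighs most in that sum, while its dim second probe did not pass (0.23, adjusted p = 0.376). The fall was that of Krt19 (-0.35). Leukocyte markers (2 of 7 tested) summed to 879 to 902 in knockout and 864 to 1066 in wild type, and skeletal muscle markers (2 of 7) to 584 to 635 in knockout and 577 to 705 in wild type. Neither leukocyte marker passed. Of the muscle markers, Acta1 fell on a dim probe (-0.79 ± 0.12, adjusted p = 0.00028), and the brighter Myl4 did not pass (0.16). Neural and glial markers fell in 3 of 3 tested genes of a list of 7, with a summed intensity of 1764 to 1870 in knockout and 5581 to 6250 in wild type. The part of cell composition in the differences of the 5 genes was not tested.

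The genes whose profile over the 6 arrays lay nearest to each of the 5 genes were found by the root mean square distance between log2 profiles, each centred on its own mean, among 7600 other annotated genes. For Insig1 these were Cd59b, Tmem53 and Ch25h, at distances of 0.043, 0.044 and 0.051, against a median distance of 0.49. Their log2 fold changes were 0.93, 0.97 and 0.95, against 0.91 for Insig1. The profile of a gene chosen by its group difference is largely that difference. Near genes are thus mainly genes of like fold change, the median distance is large for the same reason, and no shared function is read from this. For Scd2 they were Vasn, Bves and Vcam1 (0.050 to 0.060), and for Idh1 Xbp1, Msi2 and Zfp819 (0.042 to 0.048). For Idh2 they were Pou6f1, H2-Ke6 and Fam135a (0.021 to 0.039), and for Acadvl Kctd6, Tpgs2 and Ift20 (0.023 to 0.025).

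The direction of all 8 probes was kept in every alternative run, but most of these runs could not have turned it. The groups did not overlap, so leaving out 1 array could not change a sign. The filter, trend and block settings left the fold change itself as it was. The ranges were narrow for most probes. Over the other processing settings, the brightest probe of Insig1 ranged from 0.86 to 0.92, Scd2 from 0.67 to 0.73, Idh1 from 0.62 to 0.68, Idh2 from 0.44 to 0.50 and the brighter Acadvl probe from -0.42 to -0.35. Leaving out 1 array gave 0.83 to 0.96 for Insig1, 0.68 to 0.80 for Scd2, 0.59 to 0.72 for Idh1, 0.47 to 0.55 for Idh2 and -0.39 to -0.32 for Acadvl. Wild-type array C was the wild-type array farthest from the knockout mean in 5 of the 8 probes, and without it Idh1 gave 0.59 and the second Acadvl probe -0.32.

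**Figure D4:**
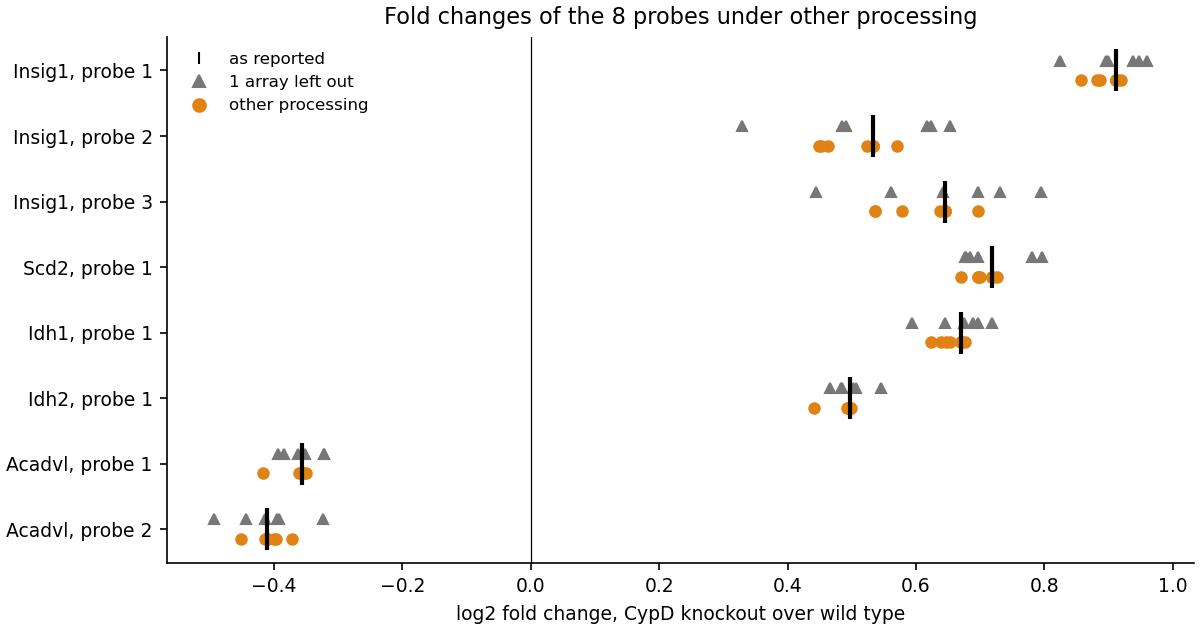
Log2 fold change (horizontal axis, CypD knockout over wild type) of the 8 probes as reported (black bar), with 1 array left out (triangles) and under other processing (circles). No point crosses 0, and the widest ranges are those of Insig1 probes 2 and 3, from 0.33 to 0.65 and from 0.44 to 0.80 with 1 array left out. Leaving out 1 array cannot bring a point across 0 where the groups do not overlap.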

How the data were processed

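RNA of 6 samples was hybridised to Illumina bead arrays of 45281 probes. The authors deposited linear intensity values, 1 file per array and 1 processed table of 12534 probes; BeadStudio 3.0 is named in the submitters' processing notes. Processed intensities were 0.979 to 1.01 times the quantile-normalized array intensities. Detection p-values, slide and scan date were not used here, so background and batch could not be examined. Gene names came from the annotation of the probes in the processed table only (10653 probes with 1 symbol, 5 with several, 1876 with none). Of the probes with 1 symbol, 10643 were matched by Entrez identifier to RefSeq (GRCm38.p6). The array's other probes were left without gene names, so a gene without an annotated probe may still be on the array.

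Intensities were background-corrected (normexp, offset 50), log2-transformed, then quantile-normalized (limma 3.58.1, R 4.3.3). Probes above the 40th percentile of mean intensity were kept (27168) and fitted (lmFit, then eBayes with its intensity trend). P-values are two-sided and adjusted as Benjamini-Hochberg values over these probes, and a call is an adjusted p under 0.05. The offset compresses fold changes of dim probes, and the number of arrays limits precision.

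A gene was represented by its brightest tested probe. From each list up to 4 called genes of lowest p and up to 2 bright genes that did not pass were named; further genes were named after their values were seen. The 5 genes and all lists were chosen with earlier results of these data known. Letters shared between groups were not treated as pairs in the main fit. Deviations of same-lettered arrays from their group means correlated at 0.101, -0.0899 and 0.0753. With no different-lettered arrays compared beside them, these values cannot show whether the arrays were paired.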

Additional observations from a re-analysis of the deposited data

How the results depend on the processing

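Each result was recomputed without background correction, with an offset of 16, with median scaling, with a filter at the 70th percentile or none, without the intensity trend, with array weights, from the processed table, with the replicate letter as a block, without each array and, for lists, with each gene's probe of highest variance. For the 8 probes of the 5 genes, 120 of 120 recomputed values kept their sign and moved by less than the SD within groups. Most of these signs were fixed beforehand. The groups did not overlap, so leaving out 1 array could not turn them, and the filter, trend and block settings do not alter the fold change. Of 96 recomputed list counts, 90 stayed within 1.5 times the reported count. Without the intensity trend, NADPH sources gave 5 calls in place of 8 and isocitrate and TCA cycle enzymes 2 in place of 6; leaving out 1 array gave 5 to 7 and 2 to 6 calls, the lowest without knockout C or wild-type A for NADPH sources and without knockout B for the TCA list. The cause was not tested. The replicate block gave 8 calls for NADPH sources, 5 for the TCA list, 12 for the sterol list and 5273 probes in all, against 5423. Of 47 named genes that passed and were followed in these runs, 32 passed in every alternative run for them. Of the named cell type markers, only Col1a1, Col1a2, Vim and Lipe were followed. The sign turned for Idh3b with the probe of highest variance (0.60), and for genes that did not pass: without knockout B, Rxra, Acadl and Acad9; without wild-type B, Acadl (0.020) and Acaa1a; without wild-type C, Nnt. Leaving out 1 array gave -0.0094 to 0.19 for Rxra, -0.26 to 0.051 for Acadl, -0.156 to 0.0018 for Acad9, -0.026 to 0.12 for Acaa1a and -0.010 to 0.16 for Nnt. Median scaling called 2283 probes upward and 3119 downward, against 2656 and 2767, and shifted the median of all probes by -0.01. Signal over background, unknown here, limits the dim probes.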
